A study of Mus musculus with 4 samples.

Results

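Genes that build ribosomes in the nucleolus were followed as a set of 40 named genes. They code for RNA polymerase I and its initiation factor, general nucleolar proteins, the small nucleolar ribonucleoproteins (snoRNPs), and assembly factors of the small and the large ribosomal subunit. Each gene was found on the arrays through the RefSeq accession of its probes, and the brightest of its probes stood for it. All 40 genes were found, on 53 probes, and all 40 passed the filter on dim probes, out of 20066 genes tested. Every one of them was well above background in both channels on all 4 arrays. A gene symbol was found for 12317 of the 20066, and the rest, transcripts or probes without one, are counted as genes throughout.

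The cells were mouse fetal liver lines transformed by a p185 BCR-ABL1 transgene, which codes for a fusion tyrosine kinase of acute lymphoblastic leukaemia, and wild-type controls carried it too. R/R lines were homozygous for Cdk4 R24C and for Cdk6 R31C, and WT lines had neither mutation. Both genotypes had a mixed C57BL/6J x CD-1 background, and RNA came from asynchronous cultures. The arrays were 4 two-colour Agilent arrays on 1 slide, each with R/R RNA against RNA of a WT pool. On 3 of them R/R clone 1, 2 or 3 was in Cy5, and on the remaining one an R/R pool was in Cy3, so the dyes were swapped. Each clone is a single spontaneously immortalised line. The clone identifiers of clones 1 and 2 begin with the same number, and that of clone 3 with another. What the R/R and WT pools held is not given in the sources used here. If the R/R pool held RNA of these clones, it is not a further independent sample. In these bulk samples, a higher share of cells with a transcript and more transcript per cell cannot be told apart.

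The labels name no blood lineage. All 13 B-lineage markers reported were well above background in R/R and WT on every array, with Cd79a and Pax5 among them. None of 4 hepatocyte and 5 erythroid markers reached that level in an R/R channel on any array, whereas in WT Gata1 did on all 4 arrays and Afp on 2. Of 6 myeloid markers measured, 4 were well above background in every R/R channel, and of 6 T and NK markers 3 were. The part of such cells in the results was not tested. Per channel, the scanner software put 42.8% to 53.4% of spots well above background, and the number of arrays limits the precision.

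Ribosome production starts in the nucleolus, where RNA polymerase I transcribes one long ribosomal RNA precursor from many repeated genes. Box C/D and box H/ACA snoRNPs then methylate and pseudouridylate the precursor, and large sets of assembly factors fold it, cut it and load ribosomal proteins, along separate routes for the small and the large subunit. The process takes up much of the energy of a growing cell, rises with proliferation, and is a well-known target of the MYC transcription factor. RB, which the cyclin D-dependent kinases CDK4 and CDK6 phosphorylate, is known to restrain RNA polymerase I. The R24C and R31C substitutions are known to make the kinases insensitive to INK4 inhibitors.

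Most ribosome biogenesis genes lay slightly above the WT pool in R/R cells, and no single gene passed the test. Fitted ratios were above 0 for 35 of the 40 members (87.5%), against 46.4% of all genes tested. Their median log2 ratio was 0.19, with a middle range from 0.05 to 0.32, and the median of all genes was -0.02 (-0.13 to 0.11). Single members ran from -0.34 for Polr1c to 0.64 for Nop16. In folds, Nop16 was 1.56-fold higher in R/R and Polr1c 1.26-fold higher in WT. The list was chosen with earlier results of these data known, so its median and counts are descriptions and have no test of their own.

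Genes were called with limma at a Benjamini-Hochberg adjusted p under 0.05 over all genes tested. None of the 40 members was called, in either direction, where 0.513% of all genes were called (29 higher and 74 lower). Over all genes the split was 2 higher and 28 lower when arrays were centred on the median in place of loess, and 4 and 42 when the log ratios came from the scanner software. The smallest adjusted p of a member was 0.102, for Ppan. At an unadjusted p under 0.05, 17 members were higher and 1 was lower in R/R. The background of that rule was 15.4% of all genes, with 7.27% higher and 8.09% lower. The count of 17 fell to 8 without clone 1, with median centring and with the scanner ratios, while the background for higher genes was 4.33%, 3.40% and 5.65% in the same settings. No member reached the smallest absolute log2 ratio among the called genes, 0.74. The 95% interval of a member's log2 ratio reached between 0.21 and 0.40 to either side of the fitted value. One WT pool stood on every array, so these errors hold none of the spread among WT lines. The fit has terms for genotype and dye, and only the pool array had the dyes swapped. The errors therefore hold the spread between the 3 R/R clones, and a gap between the pool and the clones adds nothing to them.

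**Figure D1:**
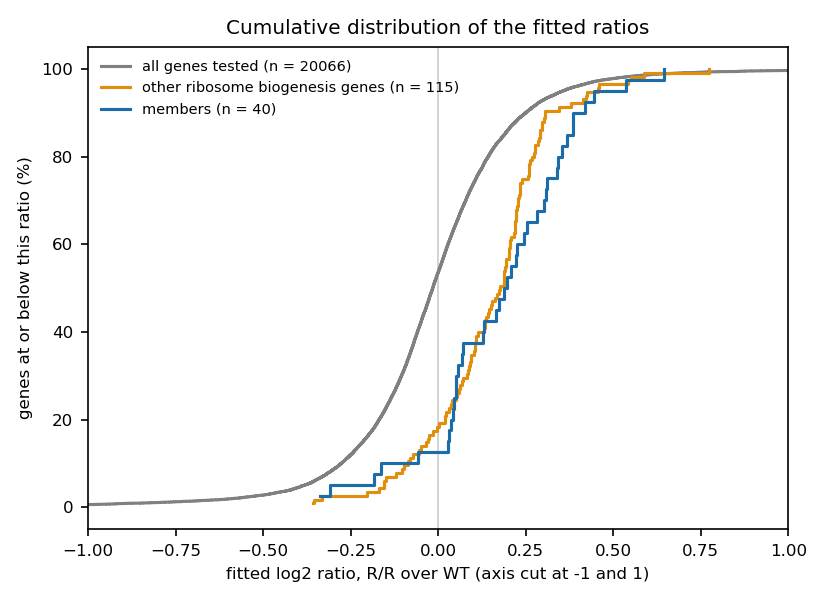
Cumulative share of genes (y axis, %) at or below a fitted log2 ratio of R/R over WT (x axis, cut at -1 and 1) for all 20066 genes tested, the 40 members and 115 other ribosome biogenesis genes. Both ribosome biogenesis curves lie to the right of the curve of all genes, with medians of 0.19 for the members, 0.18 for the other ribosome biogenesis genes and -0.02 for all genes.

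Members lay above 0 on all 4 arrays in 18 cases, and 2 lay below 0 on all 4. Among all genes tested 14.6% were above 0 on all 4 arrays and 16.2% below. The arrays share the WT pool, so the 4 ratios of a gene are not independent. The median of the members was 0.22 in clone 1, 0.18 in clone 2, 0.16 in clone 3 and 0.18 on the pool array. Clone 1 had 37 members above 0, clone 2 had 32, clone 3 had 25 and the pool array had 27. Of all genes, 48.4%, 52.2%, 46.7% and 46.2% were above 0 on the same arrays. The medians were therefore alike on the 4 arrays, while clone 3 and the pool array held more members below 0 than clone 1 did. For 19 of the 40 members the pool value lay within the range of the clones, as for 54.8% of all genes. It lay above that range for 11 members and below it for 10, against 4151 and 4910 of all 20066 genes.

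The probes of these genes were bright, with a median of 10.67 on the log2 scale of brightness against 7.97 for all genes. Of the 40 members 29 fell among the 5017 brightest genes tested, and 25 of these 29 were above 0. Among those 5017, 50.9% of genes were above 0, with a median log2 ratio of 0.01, and 12.4% were higher at an unadjusted p under 0.05. The 5016 genes next in brightness held 10 members, 9 of them above 0, against 46.6% of those genes.

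**Figure D2:**
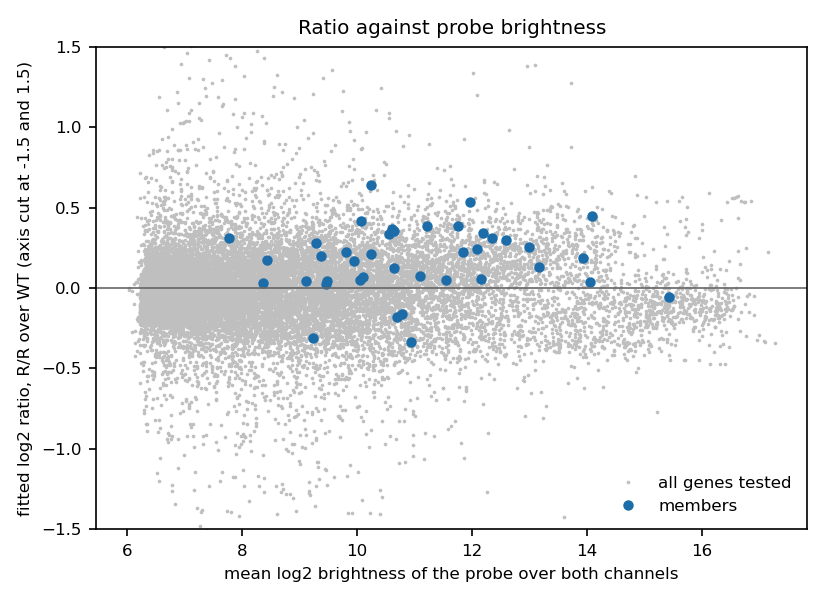
Fitted log2 ratio of R/R over WT (y axis, cut at both ends) against the mean log2 brightness of the probe over both channels (x axis) for all genes tested (grey) and the 40 members (blue). Members spread over the middle and bright part of the range, and 35 of them lie above the line at 0.

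The E-box hexamer CACGTG, the textbook binding motif of MYC and of related factors, was looked for in the promoters of the members. It reads the same on both strands. The windows were RefSeq promoters of GRCm38.p6, 250 bases before to 50 bases after each gene's start, and 35 of the 40 members had one. Npm1, Fbl, Rrp12, Bop1 and Rrs1 had none in the table. The hexamer occurred in 9 of these 35 members (25.7%), in 17 of 98 other ribosome biogenesis genes with a window (17.3%), and in 8.09% of 27025 genes with a window. The 27025 genes were not limited to those tested on the arrays or matched to the members in brightness, so the shares are of unlike sets. A match is a description of the letters and no evidence of binding, and its absence says only that the letters are not in the window. These are the 10 matches with up to 12 bases on either side, the hexamer in capitals, 5′ to 3′ on the strand of the gene. They are shown because they are the letters that the counts above rest on.
Rrn3 (chr16:13780472-13780501, + strand, 215 bases before the start): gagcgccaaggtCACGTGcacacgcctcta
Rrn3 (chr16:13780639-13780668, + strand, 48 bases before the start): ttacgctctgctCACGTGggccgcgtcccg
Nop2 (chr6:125131811-125131840, + strand, 60 bases before the start): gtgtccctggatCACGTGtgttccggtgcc
Pes1 (chr11:3963965-3963994, + strand, 2 bases after the start): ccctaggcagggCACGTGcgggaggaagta
Wdr43 (chr17:71616220-71616249, + strand, 17 bases after the start): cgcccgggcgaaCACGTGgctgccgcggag
Nle1 (chr11:82908355-82908384, - strand, 23 bases after the start): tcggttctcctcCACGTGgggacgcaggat
Tsr1 (chr11:74898092-74898121, + strand, 24 bases after the start): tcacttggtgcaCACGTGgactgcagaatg
Ltv1 (chr10:13193092-13193121, - strand, 28 bases after the start): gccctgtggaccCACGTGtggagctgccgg
Utp20 (chr10:88826765-88826789, - strand, 37 bases after the start): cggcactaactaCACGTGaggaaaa
Mybbp1a (chr11:72441355-72441376, + strand, 40 bases after the start): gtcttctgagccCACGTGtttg

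Of the 10 matches 7 lay within the first 50 transcribed bases, and the 3 others before the start of Rrn3 and Nop2. The 9 members with the hexamer had a median log2 ratio of 0.07, and the 26 members with a window that lacks it had 0.19. Nop16 and Ppan, the members with the highest ratios, had no match. The 250 bases before their starts are printed so that the letters can be read. The 50 bases after each start were searched too and are not printed.
Nop16 (chr13:54590075-54590324, - strand): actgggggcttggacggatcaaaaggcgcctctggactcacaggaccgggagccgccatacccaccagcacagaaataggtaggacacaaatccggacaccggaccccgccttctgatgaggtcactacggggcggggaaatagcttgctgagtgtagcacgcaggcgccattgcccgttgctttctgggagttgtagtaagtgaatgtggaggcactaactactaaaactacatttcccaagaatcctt
Ppan (chr9:20887925-20888174, + strand): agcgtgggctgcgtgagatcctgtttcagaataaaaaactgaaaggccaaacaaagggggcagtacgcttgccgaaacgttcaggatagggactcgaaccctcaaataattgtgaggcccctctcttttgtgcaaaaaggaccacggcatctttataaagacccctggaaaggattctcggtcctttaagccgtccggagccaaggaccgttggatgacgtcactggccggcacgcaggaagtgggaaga

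**Figure D3:**
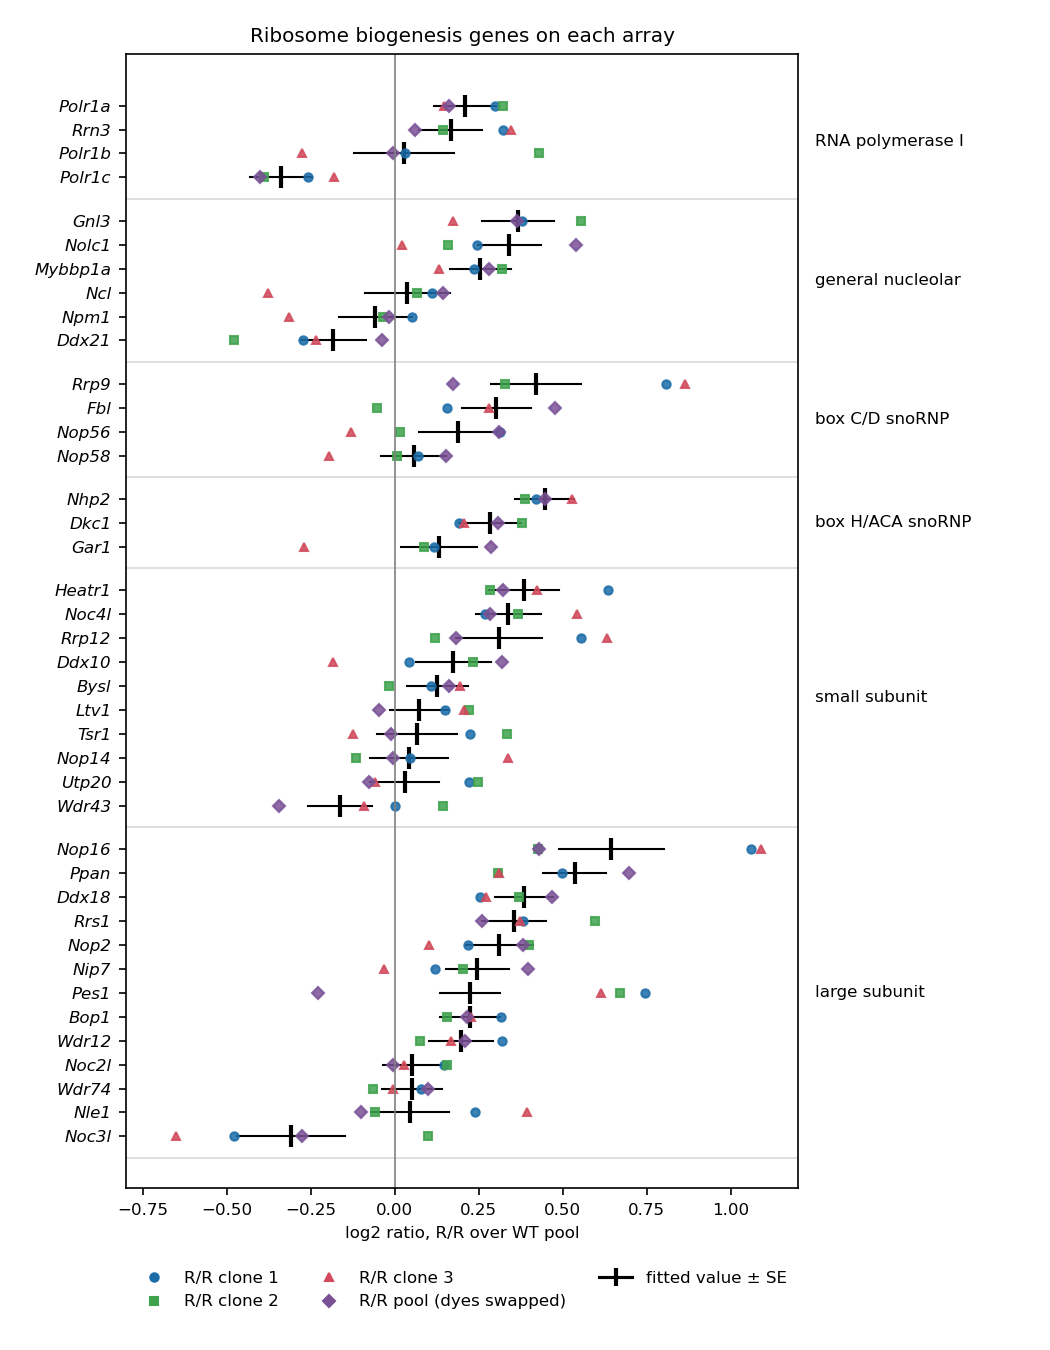
Log2 ratio of R/R over the WT pool (x axis) for the 40 members (y axis), grouped by role and ordered within a role by fitted value, with 1 point per array and the fitted value ± SE in black. Most fitted values lie to the right of 0, from 0.64 for Nop16 down to -0.34 for Polr1c, and the 3 clones lie far apart for Noc3l, Polr1b, Nop16 and Rrp9.

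The 4 members of the RNA polymerase I group did not move as a block, with 3 above 0 and 1 below 0 in the fit. Polr1a codes for the largest subunit of the enzyme, and its log2 ratio was 0.30 in clone 1, 0.32 in clone 2, 0.15 in clone 3 and 0.16 on the pool array. The fitted value was 0.21 ± 0.09 (SE, 3 clones and 1 pool, limma adjusted p = 0.355). Polr1c, a subunit that RNA polymerase I shares with RNA polymerase III, was the lowest member, at -0.26, -0.39 and -0.18 in clones 1, 2 and 3 and -0.40 on the pool array. It was thus below 0 on every array, with a fitted value of -0.34 ± 0.09 (adjusted p = 0.194). The initiation factor gene Rrn3 codes for TIF-IA, which brings the polymerase to the promoter. Its ratios were 0.32, 0.14 and 0.35 in the clones and 0.06 on the pool array, all above 0 (fitted 0.17 ± 0.09, adjusted p = 0.447). Polr1b, the second-largest subunit, differed most between clones in this group, with 0.03 in clone 1, 0.43 in clone 2, -0.28 in clone 3 and -0.01 on the pool array. Its fitted value of 0.03 ± 0.15 therefore averages clones on both sides of 0 (adjusted p = 0.944).

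Of the 6 general nucleolar proteins, Nolc1, Gnl3 and Mybbp1a lay above 0, Ncl and Npm1 near 0, and Ddx21 below 0. The abundant nucleolar phosphoproteins nucleolin (Ncl) and nucleophosmin (Npm1) stood at 0.04 ± 0.13 (95% interval -0.28 to 0.35) and -0.06 ± 0.11 (-0.33 to 0.21), with adjusted p of 0.909 and 0.824. Ncl was 0.11 in clone 1, 0.07 in clone 2, 0.14 on the pool array and -0.38 in clone 3. A second, dimmer Ncl probe gave a fitted -0.14, with clone 2 at 0.70 and clone 3 at -0.86, so the Ncl probes differed in sign but both were lowest in clone 3. Npm1 was 0.05 in clone 1, -0.04 in clone 2, -0.02 on the pool array and -0.32 in clone 3. The other 4 Npm1 probes gave fitted values of -0.13 to -0.20, and clone 3 was the lowest array on each of the 5 probes (-0.32 to -0.57).

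Nolc1 codes for a phosphoprotein that chaperones snoRNPs, and it was 0.25, 0.16 and 0.02 in the clones and 0.54 on the pool array (fitted 0.34 ± 0.09, adjusted p = 0.194). On the clones alone the fitted value of Nolc1 was 0.14 (adjusted p = 0.452). The pool value exceeded all 3 clones, and a dimmer Nolc1 probe gave another order, with 0.57, 0.51 and -0.05 in the clones and 0.09 on the pool array. Gnl3, which codes for nucleostemin, a GTP-binding protein of proliferating and stem cells, was 0.38, 0.55 and 0.17 in the clones and 0.36 on the pool array. All 4 values were above 0 (fitted 0.37 ± 0.11, adjusted p = 0.216). Mybbp1a, a nucleolar protein that binds MYB and RNA polymerase I, was also above 0 on every array, from 0.13 in clone 3 to 0.32 in clone 2 (fitted 0.25 ± 0.09, adjusted p = 0.280). Ddx21, a nucleolar RNA helicase, went the other way with its brightest probe, from -0.48 in clone 2 to -0.04 on the pool array (fitted -0.18 ± 0.10, adjusted p = 0.427). A slightly dimmer Ddx21 probe gave 0.20, with 0.24, 0.33 and -0.21 in the clones and 0.28 on the pool array, so the direction of this gene depends on the probe.

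The box C/D snoRNP genes were above 0 in the fit for all 4 members. Fbl codes for fibrillarin, the methyltransferase of these particles, and was 0.15, -0.05 and 0.28 in the clones and 0.48 on the pool array (fitted 0.30 ± 0.10, adjusted p = 0.265). Without the pool array Fbl had 0.13 (adjusted p = 0.542). The paired core proteins Nop56 and Nop58 stood at 0.19 ± 0.12 (adjusted p = 0.479) and 0.06 ± 0.10 (adjusted p = 0.810). Both were lowest in clone 3, at -0.13 and -0.20, and above 0 on the other 3 arrays. Nop56 was 0.31 in clone 1, 0.02 in clone 2 and 0.31 on the pool array, and Nop58 was 0.07, 0.01 and 0.15. A dimmer Nop56 probe gave a fitted 0.12, with clone 2 lowest at -0.05 and clone 3 at 0.05. Rrp9, a protein of the snoRNP that guides the early cleavages of the precursor, had the highest ratio of the group. It was 0.81 in clone 1, 0.33 in clone 2, 0.86 in clone 3 and 0.17 on the pool array (fitted 0.42 ± 0.13, adjusted p = 0.240). Clones 1 and 3 stood well above clone 2 and the pool, and the clones alone gave Rrp9 0.67 (adjusted p = 0.105).

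Among the box H/ACA genes, Nhp2 had the narrowest spread for its size. Nhp2 codes for a core protein of these particles and of telomerase, and its log2 ratio was 0.42, 0.39 and 0.53 in the clones and 0.45 on the pool array. The fitted value was 0.45 ± 0.09, or 1.36-fold higher in R/R (95% interval 1.17- to 1.59-fold, adjusted p = 0.126). Dkc1, the pseudouridine synthase dyskerin, was above 0 on every array as well, at 0.19, 0.38 and 0.21 in the clones and 0.31 on the pool array (fitted 0.28 ± 0.09, adjusted p = 0.248). Gar1, another core protein, was 0.12 in clone 1, 0.09 in clone 2, 0.28 on the pool array and -0.27 in clone 3. Its fitted 0.13 ± 0.11 (adjusted p = 0.606) thus holds clone 3 on the other side of 0.

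Small subunit factors had a median log2 ratio of 0.10 over 10 genes, with 9 above 0. Heatr1, a large scaffold protein of the small subunit processome, was 0.63 in clone 1, 0.28 in clone 2, 0.42 in clone 3 and 0.32 on the pool array (fitted 0.38 ± 0.10, adjusted p = 0.194). Noc4l, a nucleolar complex protein, was 0.27, 0.37 and 0.54 in the clones and 0.28 on the pool array (fitted 0.34 ± 0.10, adjusted p = 0.212). Rrp12, which takes part in the export of pre-ribosomal particles, was 0.55, 0.12 and 0.63 in the clones and 0.18 on the pool array (fitted 0.31 ± 0.13, adjusted p = 0.337). These 3 genes were above 0 on all 4 arrays, and no other small subunit member was.

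The other small subunit genes lay closer to 0. The helicase gene Ddx10 was at 0.17 ± 0.11, with clone 3 at -0.18, and Bysl, which codes for bystin, at 0.13 ± 0.09, with clone 2 at -0.02. Ltv1, needed for late maturation and export of the small subunit, stood at 0.07 ± 0.09, and its clones were close together at 0.15, 0.22 and 0.21 while the pool array gave -0.05. Tsr1, a GTPase-like factor of late maturation, had 0.07 ± 0.12, and the processome proteins Nop14 and Utp20 had 0.04 ± 0.12 and 0.03 ± 0.10. Each of these last 3 genes took both signs among the clones. Wdr43, a WD-repeat protein of the processome, was the 1 member of the group below 0, at -0.16 ± 0.09, from -0.34 on the pool array to 0.14 in clone 2 (adjusted p = 0.457). A second Wdr43 probe of nearly the same brightness gave 0.07, with 0.36, 0.35 and 0.07 in the clones and -0.12 on the pool array.

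Large subunit factors held the highest members, and 12 of 13 were above 0, with a median of 0.22. Nop16, a nucleolar protein of early large subunit precursors, was 1.06 in clone 1, 0.42 in clone 2, 1.09 in clone 3 and 0.43 on the pool array. All 4 values were above 0, and clones 1 and 3 were more than 0.6 above the other arrays. Its fitted value was 0.64 ± 0.16, or 1.56-fold (95% interval 1.19- to 2.05-fold, adjusted p = 0.166). Ppan, the homologue of yeast SSF proteins, was 0.50, 0.31 and 0.31 in the clones and 0.70 on the pool array. Its fitted 0.54 ± 0.09, or 1.45-fold (1.23- to 1.70-fold), had the smallest p of the 40 members and ranked 312th of all genes by p. The helicase gene Ddx18 was 0.26, 0.37 and 0.27 in the clones and 0.47 on the pool array (fitted 0.38 ± 0.09, adjusted p = 0.155), and a second probe gave 0.33 with every array above 0.

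Rrs1, which helps to load the ribosomal RNA and proteins of the central protuberance, was above 0 on all arrays, from 0.26 on the pool array to 0.60 in clone 2 (fitted 0.36 ± 0.10, adjusted p = 0.190). Nop2, an RNA methyltransferase of the large subunit, ran from 0.10 in clone 3 to 0.40 in clone 2 (fitted 0.31 ± 0.10, adjusted p = 0.243). Nip7 was 0.12 in clone 1, 0.20 in clone 2, -0.03 in clone 3 and 0.40 on the pool array (fitted 0.25 ± 0.09, adjusted p = 0.307). Without the pool array Nip7 had 0.10 (adjusted p = 0.616). A dimmer Nip7 probe gave 0.30 with every array above 0, from 0.145 in clone 2 to 0.45 in clone 1, and 0.31 on the pool array.

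Bop1, Pes1 and Wdr12 form the PeBoW complex, which large subunit maturation requires, and their fitted values were 0.22 ± 0.09, 0.22 ± 0.09 and 0.20 ± 0.10 (adjusted p of 0.324, 0.314 and 0.395). The like values hide different arrays. Bop1 was 0.32, 0.15 and 0.23 in the clones and 0.21 on the pool array, and Wdr12 was 0.32, 0.08, 0.17 and 0.21, so all 4 arrays were above 0 for both genes. Pes1 was 0.74, 0.67 and 0.61 in the clones and -0.23 on the pool array. The SE of Pes1 holds no part of this gap between the pool and the clones. On the clones alone Pes1 had 0.68 (limma adjusted p = 0.0518), 3.02 times the fitted value on all arrays, and a dimmer Pes1 probe gave 0.48, -0.15 and 0.44 in the clones and 0.10 on the pool array. Whether the dye or the content of the pool goes with this difference cannot be told apart, since 1 array carried both.

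At the low end, Wdr74, Nle1 and Noc2l stood at 0.05 ± 0.09, 0.04 ± 0.12 and 0.05 ± 0.09, and their 95% intervals reached from -0.25 to 0.34 at most. Wdr74 and Nle1 act in the remodelling of large subunit precursors, and Noc2l is the nucleolar partner of Noc3l. Noc3l was the 1 large subunit member below 0, at -0.31 ± 0.16 (adjusted p = 0.424). It was -0.48 in clone 1, 0.10 in clone 2, -0.65 in clone 3 and -0.28 on the pool array, which is the widest range over the clones of any member, 0.75.

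**Figure D4:**
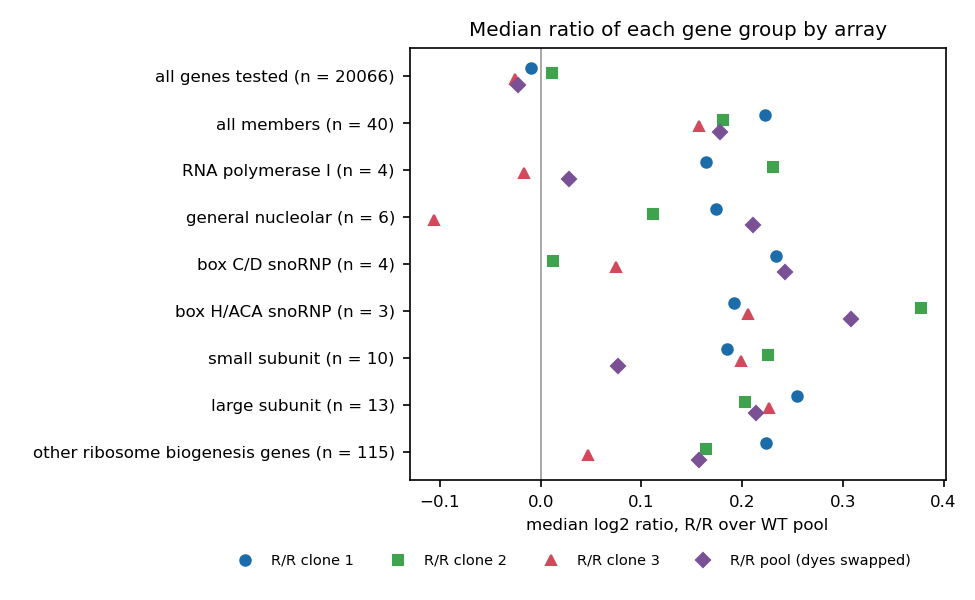
Median log2 ratio of R/R over the WT pool (x axis) on each array for all genes tested, the 40 members, the 6 role groups and 115 other ribosome biogenesis genes (y axis), with 1 point per array. The medians of the large subunit group stay between 0.20 and 0.26 on the 4 arrays, whereas those of the general nucleolar group run from -0.11 in clone 3 to 0.21 on the pool array.

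By role, the median of the large subunit group was 0.26 in clone 1, 0.20 in clone 2, 0.23 in clone 3 and 0.21 on the pool array, which is the closest agreement between arrays of the 6 groups. The general nucleolar group had 0.17, 0.11, -0.11 and 0.21, and the RNA polymerase I group 0.16, 0.23, -0.02 and 0.03. The difference between the groups was not tested. Clone 3 was the lowest of the 3 clones for 20 of the 40 members, against 40.3% of all genes, and the highest for 12, against 33.5%.

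Single fitted values depended on the pool array for many members, since it weighs as much in the fit as the 3 clones together. The fit on the clones alone has no dye term. R/R RNA was in Cy5 on all 3 of those arrays, so its values include any dye effect of a gene. On the clones alone, 18 of the 40 fitted values stayed within 1.5 times the value with the pool, among them Nop16, Ppan, Nhp2, Ddx18, Heatr1, Rrs1 and Polr1c. They came closer to 0 by more than that for Nolc1, Fbl, Nip7, Nop56 (0.07), Ddx10 (0.03) and Wdr74. They moved farther from 0 for 12 members, with Pes1, Rrp9, Rrn3 (0.27) and Ddx21 (-0.33) among them. The other 4 took the other sign, with Gar1 at -0.02, Ncl at -0.07, Nop58 at -0.04 and Wdr43 at 0.02. No member was called on the clones alone by limma, and 16 were higher at an unadjusted p under 0.05, where 9.14% of all genes were. The median of the members was then 0.17.

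A further 118 genes of the pathway were listed, with the rest of RNA polymerase I, snoRNP proteins and their assembly factors, further subunit factors and the nuclear exosome. Of these, 115 passed the filter, and Ttf1, Utp18 and C1d did not. Their median log2 ratio was 0.18 and 94 of 115 (81.7%) were above 0, against 0.19 and 87.5% for the members. Fewer were above 0 on all 4 arrays, 33.9% against 45% of the members. None was called with limma. At an unadjusted p under 0.05 there were 27 higher and 2 lower, beside the same 7.27% and 8.09% of all genes. The share of higher genes was 23.5% of the further list, against 42.5% of the members. By array their medians were 0.22 in clone 1, 0.16 in clone 2, 0.05 in clone 3 and 0.16 on the pool array.

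Dimt1, the methyltransferase that dimethylates small subunit RNA, had the highest ratio of these genes, at 0.62, 0.94 and 0.42 in the clones and 0.89 on the pool array (fitted 0.77 ± 0.12, adjusted p = 0.089). Without clone 3 it was the 1 gene of the further list that was called. Ebna1bp2, a large subunit factor, was 0.78, 0.76 and 0.57 in the clones and 0.47 on the pool array (fitted 0.59 ± 0.09, adjusted p = 0.088). Nsa2 stood at 0.54 ± 0.09 (adjusted p = 0.094) and the exosome subunit gene Exosc6 at 0.55 ± 0.10 (adjusted p = 0.108), each above 0 on all 4 arrays. The lowest p values below 0 belonged to the small subunit kinase gene Riok3 at -0.35 ± 0.09 (adjusted p = 0.188), which was below 0 on all arrays, and to Surf6 at -0.36 ± 0.12 (adjusted p = 0.257). Nufip1, a snoRNP assembly factor, followed at -0.20 ± 0.11 and Nop53 at -0.17 ± 0.10. The gene for UBF, Ubtf, the architectural factor of RNA polymerase I promoters, stood at -0.33 ± 0.20. It ran from -0.72 on the pool array to 0.65 in clone 2, and it was picked with its values in view, outside the naming rule. The further list held 10 genes of the RNA polymerase I group, 9 of them above 0, with a median of 0.21. Ubtf was the 1 below 0.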

How the data were processed

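RNA of 3 R/R clones and 1 R/R pool was measured against 1 WT pool on 4 two-colour arrays. Per the file headers, Feature Extraction 11.5.1.1 wrote the deposited intensity values, which are medians over the pixels of a spot and of its surroundings, and the processed intensities were background-subtracted and dye-normalised by the scanner software. The ratio of processed Cy5 to Cy3 was deposited on the log10 scale, per the file headers. The deposited table of the series was not used, since its row numbers match no probe.

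Median signals went through normexp (offset 50) and then loess on each array in limma 3.58.1 (R 4.3.3), where control spots had weight 0. Outlier spots (210 to 265 per array) were left out, and the mean over the spots of 1 probe was taken. A gene symbol was found for 27656 of 55681 probes through RefSeq accessions of GRCm38.p6. A probe was kept when 1 of the genotypes was well above background on at least 3 arrays (26476 probes), and the brightest per gene gave 20066 genes. Of these, 12317 had a gene symbol. The others were kept under their name on the array and are part of every share given for all genes. Each gene was fitted with terms for genotype and dye (2 residual degrees of freedom), so the pool counts as much in a fitted ratio as the 3 clones together. P-values are two-sided and were adjusted over all genes by the Benjamini-Hochberg method. The fit was also run on simulated arrays. These had no dye effect and no shared WT pool, so they cannot test how either acts on the p-values.

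Members, lists, tests and alternatives were chosen with earlier results of these data known. One B-lineage marker is not reported here. Array values were given for the 3 members of each role with the smallest p, for the 4 members whose clones lay farthest apart and, beyond that rule, for further members. From the further list, the 4 genes with the smallest p in each direction were named. P-values of the fit with a dye term set a ratio against the spread between the 3 R/R clones. They hold no spread among WT lines and none between the pool and the clones. The labels call the cultures biological replicates.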

Additional observations from a re-analysis of the deposited data

How the results depend on the processing

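The median of the members stayed between 0.17 and 0.23 and the number above 0 between 33 and 35 over 14 alternatives: log ratios of the scanner software, a normexp offset of 16, centring on the median, scaling of arrays, no filter, a stricter filter, averaged probes, no pool array, no dye term, 1 clone fewer (3 ways), 1 value for clones 1 and 2, and an intensity trend. In 13 of the alternatives no member was called. With no dye term, which counts the pool as another replicate, 6 were called, all higher (Heatr1, Nhp2, Noc4l, Nop16, Ppan and Rrs1). That setting called 1135 of all 20066 genes, 488 higher and 647 lower. Of the further list it called 9, among them Riok3, which was below 0. Members higher at an unadjusted p under 0.05 numbered 17 in the report, 8 with the scanner ratios, 8 with median centring, and 8 to 16 with a clone left out. Over all genes, 103 were called, against 30 with median centring, 46 with the scanner ratios, 58 without clone 1 and 264 without clone 3; the causes were not tested. Signs of 30 members held in every alternative. The other 10, Ddx21, Wdr43, Gar1, Npm1, Nop58, Nle1, Nop14, Ncl, Utp20 and Polr1b, lay within 0.18 of 0 and took the other sign in at least 1 alternative without a call. No paired analysis was possible because every array already sets R/R RNA against the same WT pool, which leaves no separate WT samples to pair. Signal over background did not limit the members, since each was well above it in both channels on every array.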
